A study of Mus musculus with 4 samples.

Results

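Genes for glucose uptake, glycolysis, lactate export and the pyruvate dehydrogenase step were examined in B16F10 cells, a pigmented mouse melanoma line that derives from the C57BL/6 strain. The 33 genes are listed for their place in the pathway, and the list uses no measured value in its rule, though it was drawn up with earlier results of these data known. For each, the probe sets annotated to that symbol alone were taken, and the brightest of them by its mean over the 4 arrays stood for the gene. This gave 30 measured genes among the 17097 genes of the series. Gpi1 (glucose phosphate isomerase) and Eno1 (enolase) had no probe set listed to them in the annotation used here, and Pgam1 (phosphoglycerate mutase) had only a probe set shared with Pgam1-ps1, so these 3 have no value.

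Cells of 2 samples were given plumbagin, a plant naphthoquinone, at 2 µM for 24 h (plumbagin 1 and plumbagin 2), and cells of 2 samples were given MilliQ water in its place, 0 µM plumbagin (control 1 and control 2). Total RNA was measured on Affymetrix 3-prime expression arrays, with 1 sample per array. All values below are RMA log2 values, so that a difference of 1 is a 2-fold change, and each difference is plumbagin minus control. Whether samples of a group were separate cultures is not stated in the labels, so p-values measure only the spread between these samples, which may be technical. The titles number the samples of each group, and number 1 below means plumbagin 1 minus control 1, and number 2 means plumbagin 2 minus control 2; no label says that equal numbers share a culture or a day.

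In glycolysis, glucose enters through facilitative transporters, is trapped by hexokinase, committed by phosphofructokinase and carried through a series of triose steps to pyruvate, with a net yield of ATP and NADH. Pyruvate is then either reduced to lactate by lactate dehydrogenase and exported by monocarboxylate carriers, or oxidised to acetyl-CoA in mitochondria by the pyruvate dehydrogenase complex, which its kinases (PDK) turn off and its phosphatases turn on. Tumour cells, melanoma included, commonly make lactate even when oxygen is present, and many genes of this pathway are known targets of the hypoxia-inducible factors and of MYC.

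None of the 30 genes was called between plumbagin and control. In the limma fit over all 17097 genes, 0 of 30 passed an adjusted p of 0.05, where the background over all genes was also 0% called, and the adjusted p was 1 for every member. At an unadjusted p under 0.05, 0 of 30 members passed, against 44 genes higher (0.257%) and 125 genes lower (0.731%) over the whole table. The differences centred close to no change: the median over the 30 genes was -0.02, with 10 higher and 20 lower. Over all genes the median was -0.01, with 7673 higher and 9424 lower. Among the 8637 genes above the background level described below, it was -0.05, with 3018 higher and 5619 lower. For the 24 members above that level it was -0.04, with 7 higher and 17 lower. Counting members with both plumbagin arrays above both control arrays gave 1 of 30 (Pdk4), where the share over all genes was 10.2%, and 4 of 30 lay below the controls on both plumbagin arrays (Pfkfb3, Eno2, Slc16a1 and Pdhb), against 15.2% of all genes. The groups overlapped in the other 25. These counts depend on single arrays: with any 1 array left out, 6 to 9 members lay above (20% to 30%), beside 23.6% to 33.2% of all genes, and 8 to 13 lay below (26.7% to 43.3%), beside 28.2% to 39.9% of all genes, since 3 arrays separate more easily than 4. Of the 24 members above background, 0 lay above both controls on both plumbagin arrays and 4 below. Of the 8637 genes above background, 489 lay above and 1580 below. With 2 arrays per group an exact permutation test of 1 gene cannot go below p = 0.333, so the array values are given for each gene that matters.

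**Figure D1:**
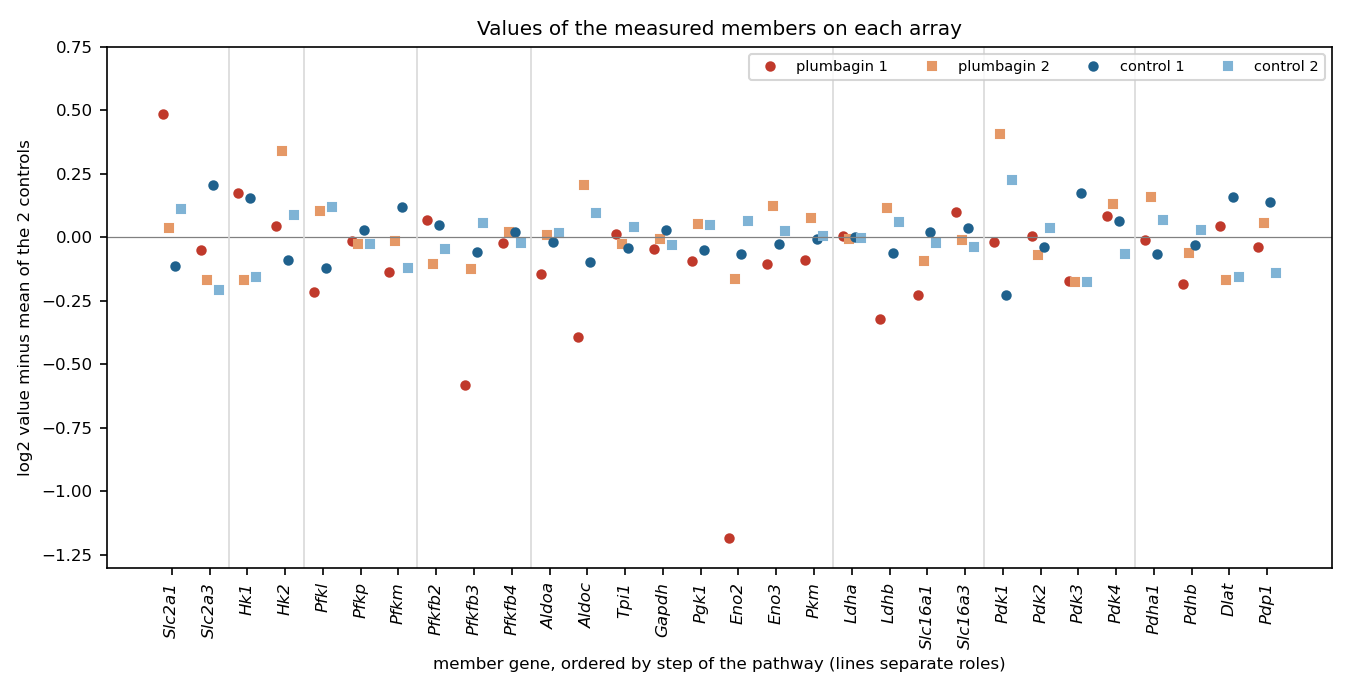
RMA log2 value of each member on each array minus the mean of its 2 control arrays, in the order of the pathway, with lines between roles, red and orange for the plumbagin arrays and dark and light blue for the control arrays. All 4 points of Ldha lie on each other, and plumbagin 1 lies below the other 3 arrays for Eno2 and Pfkfb3 and above them for Slc2a1.

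The arrays were read first for what they hold. All 7 melanocytic markers were above the background level of 5.05, which is the 95th percentile of 41 odorant receptor genes, with means between 10.9 and 12.3. Of the fibroblast and epithelial markers 0 of 4 each were above it, while 1 of 3 endothelial markers (Kdr, 5.15) and 1 of 3 measured leukocyte markers (Cd3e, 6.22) were. The hybridization controls averaged 9.58 on plumbagin 1 and 8.67 on plumbagin 2, against 8.46 on control 1 and 8.77 on control 2, so plumbagin 1 stood apart in these controls. Array medians lay between 4.32 and 4.39. In bulk RNA, fewer cells carrying a transcript and less of it per cell cannot be told apart.

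Of the 30 members, 24 had a mean above the background level, and Pfkfb2, Pfkfb4, Slc16a3, Pdk2, Pdk4 and Pdp1 did not. RMA compresses signals this weak, so the differences of those 6 say little about the transcript. The difference was within 0.1 for 19 of 30 members (63.3%), beside 63.1% of all genes. It was beyond 0.25 in either direction for 3 members (10%), Eno2, Pfkfb3 and Slc2a1, beside 6.46% of all genes. The size of these 3 differences lay at percentiles 99.9, 98.2 and 94.3 of all genes. The widest 95% confidence limits among the members were -1.64 (Eno2) and 0.80 (Pdk1).

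**Figure D2:**
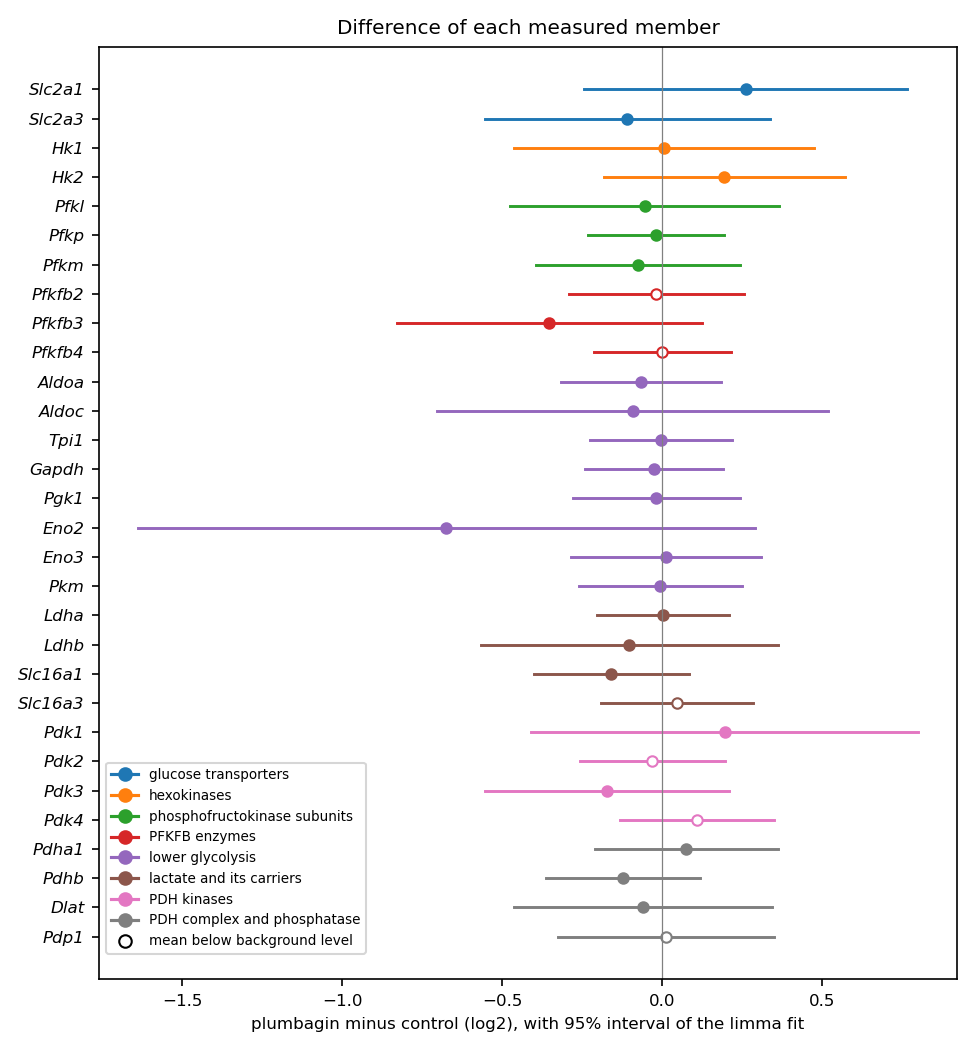
Plumbagin minus control (log2) for each member with its 95% confidence interval from the limma fit, coloured by role, with open points for members below background. Every interval contains 0, the widest being that of Eno2 (-1.64 to 0.29).

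The promoters of 4 genes were searched for sequence elements by which this pathway is usually described, and 3 of the 4 hold them. Each is the 250 bases before the RefSeq transcription start (build GRCm38.p6, 5′ to 3′ on the gene's strand, the start farthest upstream where there are several), with ACGTG, the core of the hypoxia response element, or its reverse complement CACGT in capitals. The E-box CACGTG, to which MYC binds, contains both. Slc2a1 (chr4:119108495-119108744, plus strand) and Pfkfb3 (chr2:11553930-11554179, minus strand) are shown as the transporter and the regulator with the largest differences, Eno2 (chr6:124769674-124769923, minus strand) as the enzyme with the largest difference, and Ldha (chr7:46845554-46845803, plus strand) as a gene whose arrays were nearly identical.
Slc2a1: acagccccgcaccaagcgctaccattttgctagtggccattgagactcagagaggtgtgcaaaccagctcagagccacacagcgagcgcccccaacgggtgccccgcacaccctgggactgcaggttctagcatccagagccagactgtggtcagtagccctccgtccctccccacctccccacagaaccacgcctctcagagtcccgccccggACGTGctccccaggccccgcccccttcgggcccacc
Pfkfb3: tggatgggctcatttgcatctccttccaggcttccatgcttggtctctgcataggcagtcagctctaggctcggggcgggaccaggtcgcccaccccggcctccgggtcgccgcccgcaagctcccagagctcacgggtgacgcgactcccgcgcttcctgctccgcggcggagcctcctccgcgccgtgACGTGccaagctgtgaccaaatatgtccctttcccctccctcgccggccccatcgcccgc
Eno2: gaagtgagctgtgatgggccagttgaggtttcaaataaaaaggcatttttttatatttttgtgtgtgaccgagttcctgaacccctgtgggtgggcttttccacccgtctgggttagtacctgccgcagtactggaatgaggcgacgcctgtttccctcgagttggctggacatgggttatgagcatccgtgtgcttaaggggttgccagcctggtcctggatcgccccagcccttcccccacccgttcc
Ldha: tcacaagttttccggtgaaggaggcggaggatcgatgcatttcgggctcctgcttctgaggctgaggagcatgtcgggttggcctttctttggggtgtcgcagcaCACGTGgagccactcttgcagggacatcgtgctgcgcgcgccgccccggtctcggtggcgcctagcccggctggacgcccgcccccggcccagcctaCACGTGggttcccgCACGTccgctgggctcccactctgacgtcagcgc
The Slc2a1 window holds 1 core that begins 36 bases before the start, and the Pfkfb3 window holds 1 that begins 60 bases before it. Ldha has E-boxes beginning 145 and 48 bases before the start and a further CACGT between the second of them and the start. The Eno2 window holds neither set of letters.

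A gene can have several starts and so several windows, and in the shares that follow a gene counts if any of its windows holds the letters, so that a gene may count although the window farthest upstream does not (Pfkfb3 and Pfkfb2 for the E-box). Over the 31 members with a window (Slc2a3 and Pdp1 had none), the core occurred on either strand in 15 (48.4%), beside 4998 of 27025 genes (18.5%). The E-box occurred in 6 (19.4%: Ldha, Pdk2, Pfkfb2, Pfkfb3, Pfkm and Slc16a1), beside 1854 of 27025 genes (6.86%). The members have 47 windows and all genes 32851. Counted per window, the core was in 40.4% of the members' windows against 16.6% of all, and the E-box in 12.8% against 6.02%. Windows of the members were richer in G and C, with a median GC content of 60.4% against 52.4% over all windows, and the part this has in the shares was not tested. Genes with a core were found among those with a lower value in plumbagin (Pfkfb3, Slc16a1, Pdhb), a higher value (Slc2a1, Hk2) and almost the same value (Ldha, Pgk1, Pkm).

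In the probe sets that stood for them, the 2 glucose transporters of the set differed in opposite directions from each other within each number. The groups overlapped for both. Slc2a1, the main glucose transporter of many proliferating cells, read 9.26 and 8.81 on the plumbagin arrays, against 8.66 and 8.89 on the control arrays. Only plumbagin 1 was high, and plumbagin 2 lay between the controls. The difference was 0.26 ± 0.19 (SE), and it was 0.04 without plumbagin 1 and 0.49 without plumbagin 2. Its other probe set, also above background, differed by 0.06. Slc2a3, a high-affinity glucose transporter best known from neurons, read 7.79 and 7.67 in plumbagin, against 8.05 and 7.63 in control. Control 1 was the high array here, and the difference was -0.11 ± 0.17, smaller than the gap of 0.42 between the controls. Another Slc2a3 probe set above background differed by -0.15, with -0.26 in number 1 and -0.05 in number 2. In number 2 it was thus lower, as Slc2a1 was (-0.08).

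Hexokinases phosphorylate glucose so that it stays in the cell. Hk2, the isoform induced in many tumours, read 9.82 and 10.11 in plumbagin, against 9.68 and 9.86 in control. Each plumbagin array was above the control of its own number, by 0.13 and 0.25, yet plumbagin 1 lay below control 2, so the groups overlapped. The difference was 0.19 ± 0.14 (1.14-fold), from 0.04 without plumbagin 2 to 0.34 without plumbagin 1. Hk1, the constitutive isoform, read 9.19 and 8.85 in plumbagin, against 9.17 and 8.86 in control. The arrays of number 1 were high and those of number 2 low in both groups alike, and the difference was 0.00 ± 0.17 (95% confidence interval -0.46 to 0.47).

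Phosphofructokinase makes the committing step, and its liver (Pfkl), platelet (Pfkp) and muscle (Pfkm) subunits form tetramers. In the probe sets that stood for them, all 3 subunits were within 0.08 of control and overlapped. Pfkl differed by -0.06 ± 0.16, Pfkp by -0.02 ± 0.08 and Pfkm by -0.08 ± 0.12. The other Pfkl probe sets, also above background and overlapping, differed by 0.06 and 0.29. Pfkm had among the widest gaps between the numbers, reading 7.23 and 7.35 in plumbagin, against 7.49 and 7.25 in control. Plumbagin was lower in number 1 (-0.25) and higher in number 2 (0.10).

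The PFKFB enzymes make and remove fructose 2,6-bisphosphate, an allosteric activator of phosphofructokinase, and Pfkfb3, whose product mainly makes it, was the regulator with the largest difference. Pfkfb3 read 6.21 and 6.66 in plumbagin, against 6.73 and 6.85 in control. Both plumbagin arrays were below both controls, plumbagin 1 clearly and plumbagin 2 by less than the gap between the controls (0.11). The difference was -0.35 ± 0.18 (1.28-fold lower; 95% confidence interval -0.83 to 0.12; limma adjusted p = 1, unadjusted p = 0.112). It was -0.52 in number 1 and -0.18 in number 2, and -0.12 without plumbagin 1. Its other probe set, below background, was also lower in both plumbagin arrays, which read 3.42 and 3.69, against 3.84 and 3.80 in control.

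The other PFKFB genes were near or below background. Pfkfb2, the isoform of heart and kidney, read 4.20 and 4.02 in plumbagin, against 4.18 and 4.08 in control, a difference of -0.02 ± 0.10. Pfkfb4, an isoform known from testis and many tumours, read 5.02 and 5.07 in plumbagin, against 5.07 and 5.02 in control. The same values occurred in both groups with the numbers exchanged, and the 95% confidence interval of the difference ran from -0.21 to 0.21.

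From aldolase to pyruvate kinase, 7 of 8 measured genes were nominally lower and 1 higher, with a median of -0.02. All 8 were above background, where 5619 of 8637 genes were lower. In number 1, 7 of the 8 were lower, and in number 2, 3 were. Eno2 had the largest difference of the 8. It encodes the enolase isoform of neurons and neuroendocrine cells and read 5.05 and 6.07 in plumbagin, against 6.17 and 6.30 in control. Plumbagin 1 lay at the background level while the other 3 arrays lay within 0.23 of each other, and both plumbagin arrays were below both controls. The difference was -0.68 ± 0.36 (1.60-fold lower; 95% confidence interval -1.64 to 0.29; limma adjusted p = 1, unadjusted p = 0.127). Within number 1 it was -1.12 and within number 2 it was -0.23, and it was -0.16 without plumbagin 1 and -1.19 without plumbagin 2. Eno2 had a single probe set, so there is no further probe set to set beside this. Eno3, the enolase of muscle, differed by 0.01 ± 0.11.

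Aldoc, the aldolase of brain, read 8.44 and 9.04 in plumbagin, against 8.73 and 8.93 in control. The plumbagin arrays enclosed the controls, with plumbagin 1 the lowest of the 4 and plumbagin 2 the highest. The difference of -0.09 ± 0.23 became 0.21 without plumbagin 1 and -0.39 without plumbagin 2.

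The abundant enzymes of the pathway differed little. The 6 members with a mean above 10 were Aldoa (aldolase), Tpi1 (triose phosphate isomerase), Gapdh (glyceraldehyde phosphate dehydrogenase), Pgk1 (phosphoglycerate kinase), Pkm (pyruvate kinase) and Ldha. Their differences were at most 0.07 in size, with a median size of 0.01, beside a median of 0.05 over the 520 genes above 10, of which 301 (57.9%) lay within 0.07. Their range over all 4 arrays was between 0.01 and 0.17. The highest value of any probe set was 12.99, so signals this bright may be compressed, which was not tested. Gapdh differed by -0.03 ± 0.08 (95% confidence interval -0.24 to 0.19), and the 3 Gapdh control probe sets on the array, from its 3-prime end, middle and 5-prime end, differed by -0.04, -0.06 and -0.03. The 3-prime minus 5-prime gap of Gapdh was 0.01 on plumbagin 1 and -0.03 on plumbagin 2, against -0.02 on control 1 and 0.01 on control 2. For Actb (beta-actin) this gap was 0.56 on plumbagin 1 and 0.52 on plumbagin 2, against 0.47 on control 1 and 0.50 on control 2. Both plumbagin arrays were above both controls in the Actb gap, and the part of this in the differences was not tested. Pkm differed by -0.01 ± 0.09 (95% confidence interval -0.26 to 0.25). The probe set of Pkm does not separate its M1 and M2 splice forms here.

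Ldha, the lactate dehydrogenase subunit that favours lactate formation, read 11.83 and 11.82 in plumbagin, against 11.83 and 11.82 in control. All 4 arrays were within 0.01, and the difference was 0.00 ± 0.08 (95% confidence interval -0.20 to 0.21). Ldhb, the subunit of oxidative tissues, read 8.83 and 9.27 in plumbagin, against 9.09 and 9.21 in control. Plumbagin 1 was low and plumbagin 2 was the highest array, so the groups overlapped, and the difference was -0.10 ± 0.17, with -0.10 also in its other probe set.

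Slc16a1 encodes the monocarboxylate carrier that moves lactate and pyruvate across the plasma membrane. It read 9.45 and 9.59 in plumbagin, against 9.70 and 9.66 in control. Both plumbagin arrays were below both controls, by a small amount: the difference was -0.16 ± 0.09 (1.12-fold lower; 95% confidence interval -0.40 to 0.08; limma adjusted p = 1), with -0.25 in number 1 and -0.07 in number 2, and it was -0.09 without plumbagin 1. Another probe set, below background, differed by -0.14. Slc16a3, the carrier known for lactate export from strongly glycolytic cells, was below background and differed by 0.04 ± 0.09.

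Among the 4 pyruvate dehydrogenase kinases, which phosphorylate and turn off the complex, 2 were nominally higher and 2 lower. Pdk1 read 9.40 and 9.82 in plumbagin, against 9.19 and 9.64 in control. Each plumbagin array was above the control of its own number, by 0.21 and 0.18, but arrays of number 2 were higher than those of number 1 in both groups, and the groups overlapped. All 3 of its probe sets were higher in plumbagin within both numbers, with differences of 0.19, 0.26 and 0.34, and for the brightest of them the gap between the controls was -0.45. The difference of 0.19 ± 0.22 (95% confidence interval -0.41 to 0.80) was -0.03 without control 1, -0.02 without plumbagin 2, 0.41 without plumbagin 1 and 0.42 without control 2. Leaving out an array makes the numbers unequal between the groups, so the gap between arrays of number 1 and number 2 enters these values. The SE and the interval come from the fit without a replicate block.

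Pdk3 read 8.06 and 8.06 in plumbagin, against 8.41 and 8.06 in control. Control 1 was the only array apart, and the difference was -0.17 ± 0.14, all of it within number 1. Pdk2 and Pdk4, kinases prominent in heart, muscle and liver, were both well below background. Pdk2 read 3.38 and 3.31 in plumbagin, against 3.34 and 3.41 in control, a difference of -0.03 ± 0.08. Pdk4, a kinase induced by fasting, read 2.76 and 2.81 in plumbagin, against 2.74 and 2.61 in control. Its plumbagin arrays were above both controls, with a difference of 0.11 ± 0.09 at a level below background.

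For the listed subunits of the pyruvate dehydrogenase complex itself, the differences ran from -0.12 (Pdhb) to 0.07 (Pdha1) in the probe sets that stood for them. Pdhb, its E1 beta subunit, read 9.31 and 9.43 in plumbagin, against 9.46 and 9.52 in control. Both plumbagin arrays were below both controls, and the difference was -0.12 ± 0.09 (1.09-fold lower; 95% confidence interval -0.36 to 0.12). It was -0.06 without plumbagin 1, and the groups overlapped in its other probe set, which was just below background and differed by -0.21. Pdha1, the E1 alpha subunit that the kinases phosphorylate, differed by 0.07 ± 0.11. Its other probe set, above background, differed by -0.18, with -0.56 in number 1 and 0.21 in number 2. Dlat, the E2 subunit, differed by -0.06 ± 0.15. The phosphatase Pdp1 read 4.71 and 4.80 in plumbagin, against 4.88 and 4.61 in control. These values were below background, and plumbagin was lower in number 1 (-0.18) and higher in number 2 (0.20).

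Isoform choice was described by how the differences of paralogues compare, since levels of different probe sets are not on a common scale. Of 18 paralogue pairs, the gap between their differences had the same sign in both numbers in 9. It set the plumbagin arrays apart from the control arrays in 4, and exceeded the gap between the controls in 5. Among single genes 8658 of 17097 had the same sign in both numbers, and 10.2% lay above and 15.2% below the controls. No share over other gene pairs was computed, and several pairs share a gene, so they are not separate observations. Eno2 minus Eno3 was -0.69 over all arrays, with -1.04 in number 1 and -0.33 in number 2, and a gap of -0.08 between the controls. Pfkfb3 minus Pfkfb4 was -0.35 over all arrays, with -0.48 and -0.23 within the numbers. Slc16a1 minus Slc16a3 was -0.20 over all arrays, with -0.31 and -0.10 within the numbers. The last of the 4 pairs set apart was Pdk3 minus Pdk4 (-0.28), and in each of these pairs except Eno2 and Eno3 the second gene was below background. The transporter pair was not steady, with Slc2a1 minus Slc2a3 at 0.86 in number 1 and -0.12 in number 2. Hk2 minus Hk1 was 0.11 and 0.27, and Pdk1 minus Pdk3 was 0.56 and 0.18, and their values over all arrays (0.19 and 0.37) were smaller in size than the gaps between the controls (-0.48 and -0.80). Ldhb minus Ldha was -0.27 and 0.06, and Aldoc minus Aldoa was -0.17 and 0.12.

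**Figure D3:**
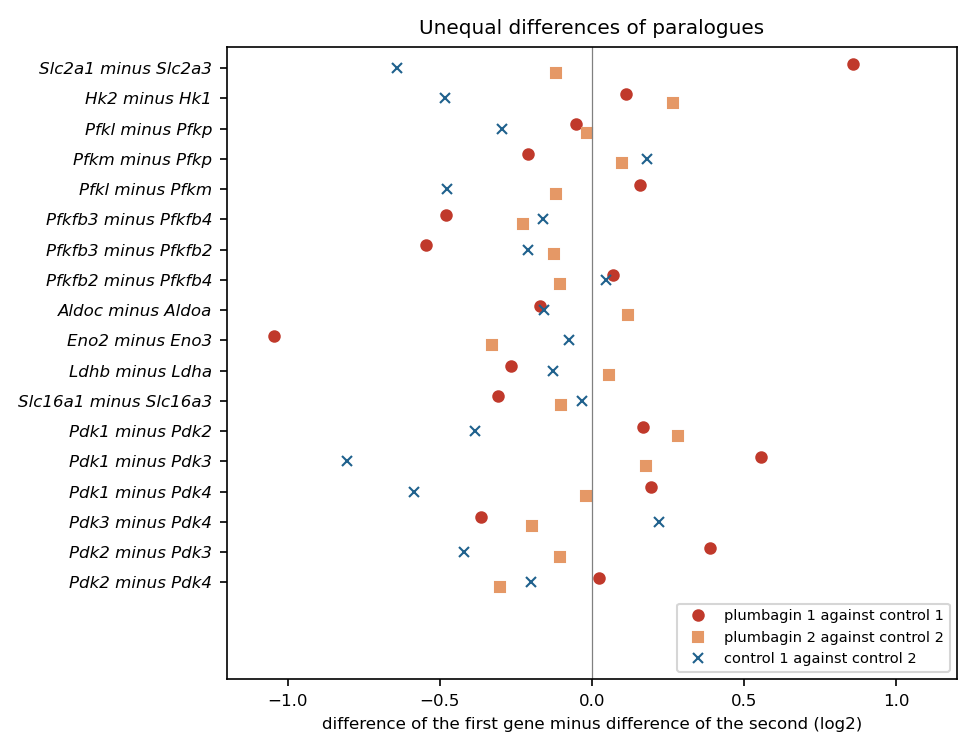
For each paralogue pair, the difference of the first gene minus that of the second (log2), for plumbagin 1 against control 1 (circles), plumbagin 2 against control 2 (squares) and control 1 against control 2 (crosses). Eno2 minus Eno3 lies below 0 in both numbers (-1.04 and -0.33), whereas Slc2a1 minus Slc2a3 changes sign (0.86 and -0.12).

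The comparison by replicate number showed larger sizes in number 1, in the members and in all genes alike. The median size of the members was 0.10 in number 1 and 0.07 in number 2, beside 0.12 and 0.07 over all genes. Of the 30 members, 19 were lower in number 1 and 13 in number 2, beside 9497 and 8798 of 17097 genes. The same sign in both occurred in 12 members, beside 8658 of all genes. The median was -0.08 in number 1 and 0.00 in number 2, beside -0.02 and 0.00 over all genes. Among genes above background the members' medians were -0.09 and 0.00, beside -0.11 and 0.00 over all 8637 such genes. Number 1 was lower for genes in general at middling brightness, with medians over all genes of -0.17 for means between 7 and 8 and -0.06 for means above 10. In number 2 the medians at those levels were 0.00 and 0.01. Plumbagin 1, which enters number 1, is the array with the highest hybridization controls, and the part of this in the differences was not tested. The 5 members with the widest gap between numbers were Eno2, Slc2a1, Aldoc, Pdp1 and Pfkm. For 28 of 30 members the gap within the controls or within the plumbagin arrays was larger than the difference between the groups. It was so within the controls for 23 and within the plumbagin arrays for 25. These shares were not computed over all genes. A gap between 2 single arrays varies more than a difference of 2-array means, so such counts run high even where groups do not differ. The median size over all genes was 0.07 for the difference, 0.11 for the control gap and 0.13 for the plumbagin gap. For the members these sizes were 0.06, 0.12 and 0.15.

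**Figure D4:**
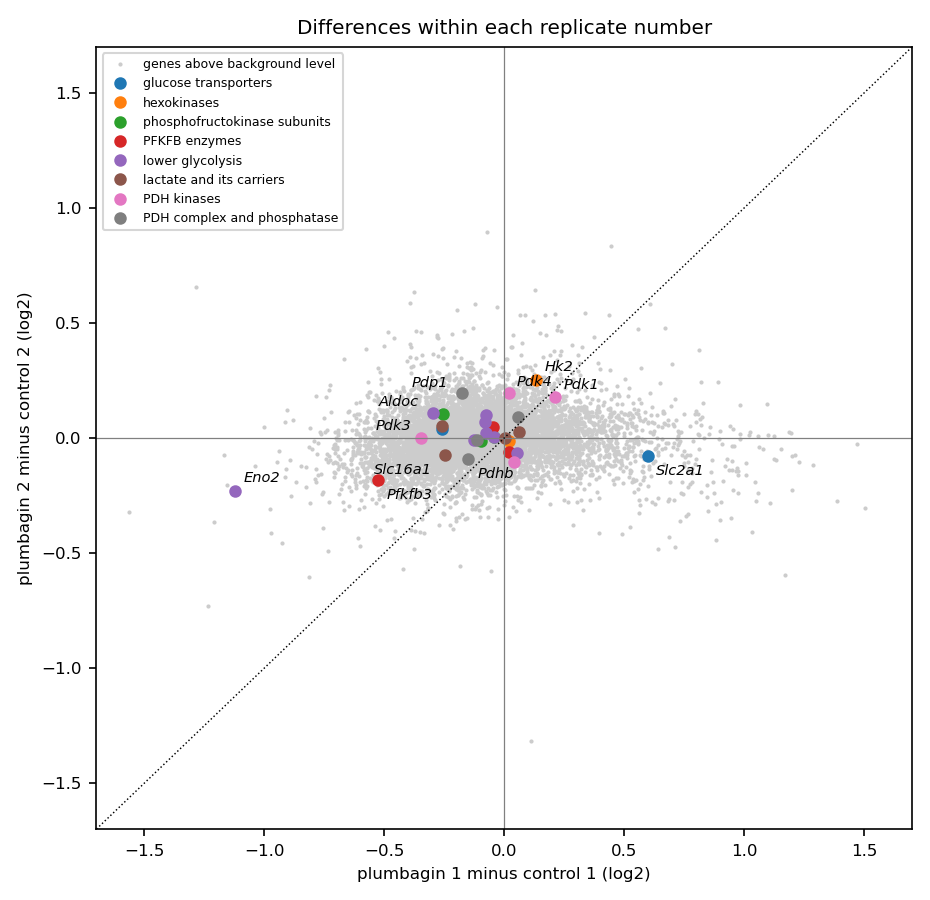
Plumbagin minus control (log2) in number 1 (horizontal) against number 2 (vertical), with members coloured by role over the genes above background in grey, and equal values on the dotted line. Eno2 is at -1.12 in number 1 and -0.23 in number 2, and Slc2a1 is at 0.60 and -0.08.

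Further probe sets gave a mixed picture. The members had 56 probe sets in all, and 18 members had several. Of the 16 further probe sets above background, 7 had a difference of opposite sign to the probe set that stood for the gene. Among them were Hk1 (-0.17 against 0.00), Pfkl (0.06 and 0.29 against -0.06) and Pdha1 (-0.18 against 0.07). The 4 probe sets of Aldoa split evenly, from -0.10 to 0.05, and 3 of Dlat were all lower (-0.06 to -0.14).

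**Figure D5:**
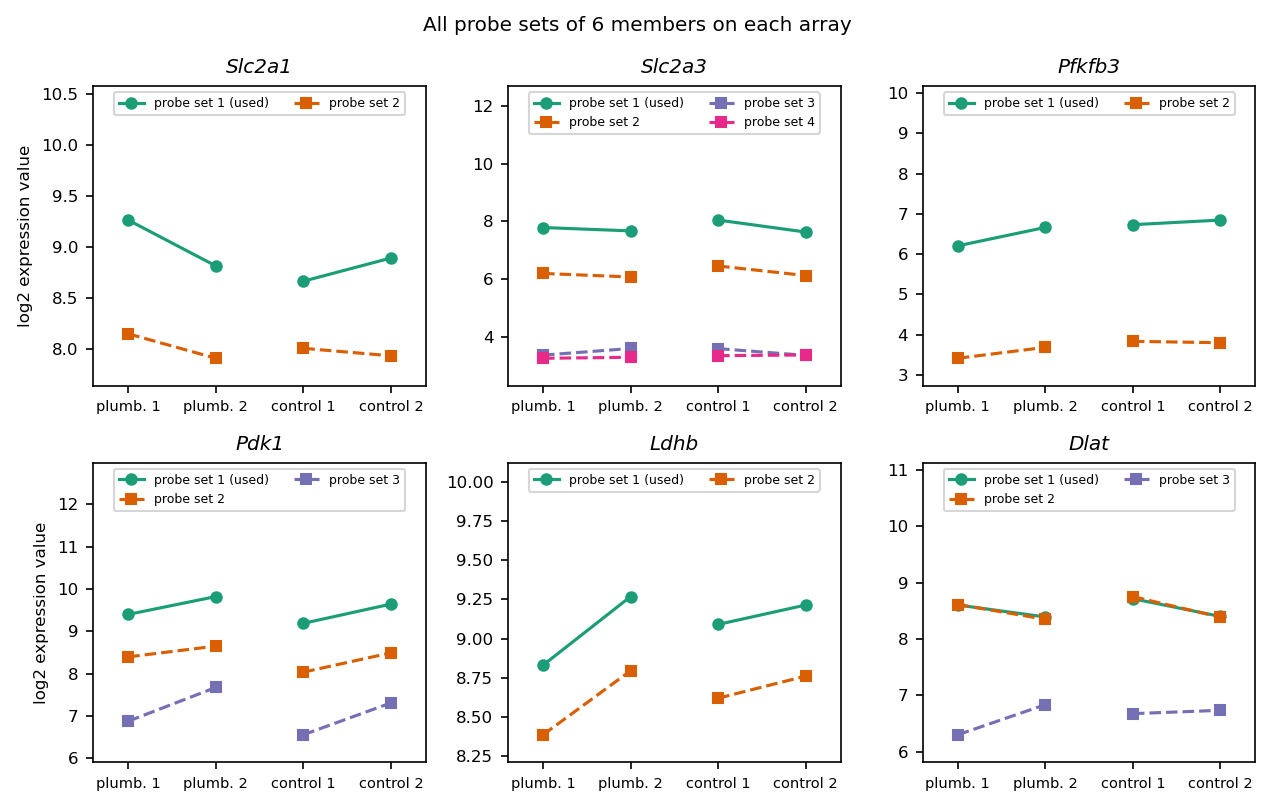
RMA log2 values of every probe set of Slc2a1, Slc2a3, Pfkfb3, Pdk1, Ldhb and Dlat on the 4 arrays, with circles for the probe set that stands for the gene and squares for the others; lines join the 2 arrays of a group. All 3 probe sets of Pdk1 read higher on plumbagin 2 than on plumbagin 1 and higher on control 2 than on control 1, and the first probe set of Slc2a1 is high on plumbagin 1.

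Other genes of the pathway, listed beside the members, gave a like picture. Of 47 listed genes 40 were measured, with 16 higher and 24 lower, beside 7673 and 9424 over all genes. Of the 23 above background 4 were higher and 19 lower, beside 3018 and 5619 of the 8637 genes above background. The median over the 40 was -0.02, with 0 called at a limma adjusted p of 0.05. An unadjusted limma p under 0.05 occurred in 1 of 40 (Pck2, named for having the smallest p of the list), beside 169 of 17097 genes. In 2 of 40 both plumbagin arrays lay above both controls, beside 10.2% of all genes, and in 4 of 40 below, beside 15.2%. Pck2, the mitochondrial phosphoenolpyruvate carboxykinase, read 9.08 and 9.16 in plumbagin, against 9.52 and 9.34 in control. Both plumbagin arrays were below both controls, and the difference was -0.31 ± 0.10 (1.24-fold lower; limma adjusted p = 1, unadjusted p = 0.0326), with -0.45 in number 1 and -0.18 in number 2. Pklr, the pyruvate kinase of liver and red cells, read 6.17 and 6.01 in plumbagin, against 5.92 and 5.91 in control. Its plumbagin arrays were above both controls, by 0.18 ± 0.09. Adpgk, a glucokinase that uses ADP, differed by -0.10 ± 0.08 with both plumbagin arrays below the controls. Slc2a4, the insulin-responsive glucose transporter (-0.15 ± 0.12), Pgm2 (-0.17 ± 0.14), and Gckr, the glucokinase regulator, which was below background (0.12 ± 0.10), overlapped between the groups.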

How the data were processed

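The 4 arrays measured total RNA of B16F10 cells, 2 samples given plumbagin and 2 given MilliQ water, grouped by their titles. The deposited values were log2 expression, given for every probe set on every array. RMA, Transcriptome Analysis Console and Affymetrix Expression Console are the tools listed by the submitters' processing notes. No version is given in the sources used here. By design, RMA makes array distributions alike, so a shift of most genes would be removed, and it compresses weak signals.

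The table held 45141 probe sets, of which 104 were controls. The platform annotation, which can be old, listed 28898 with 1 symbol and 551 with several. Of these 28898, 28689 had an Entrez number that was found in a RefSeq table (GRCm38.p6) and took the symbol given there. How many symbols changed by this was not counted. Some probe sets of the members (of Slc2a3, Aldoa, Tpi1, Gapdh and Dlat among others) carry name endings that mark probes shared with similar transcripts. Plumbagin minus control was fitted over 17097 genes with lmFit and eBayes (limma 3.58.1, R 4.3.3), without covariates or a filter, two-sided, with Benjamini-Hochberg adjustment and a threshold of 0.05. The code was tested on simulated data. The members and lists were chosen with earlier results of these data known. Array values are printed for members above background whose groups are apart, for the transporters, hexokinases, PFKFB, lactate dehydrogenase and PDK genes, and for the 5 members with the widest gap between numbers. Of the other pathway genes the 6 with the smallest p are named. Alternatives were averaging all probe sets per gene, dropping dim genes by either of 2 filters, repeated quantile normalization, centring, cyclic loess, a robust eBayes or a trended eBayes, a replicate block, and each array left out. Promoter windows were from RefSeq. Precision is limited by the number of arrays.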

Additional observations from a re-analysis of the deposited data

How the results depend on the processing

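In all 13 alternatives to the fit as reported, 0 genes were called at a limma adjusted p of 0.05, members and other pathway genes included. The number of genes with an unadjusted p under 0.05 was 169 as reported. It was 24 and 25 with the filters on dim genes, which test fewer genes, 56 without plumbagin 1, 64 without control 1, 790 without control 2 and 973 without plumbagin 2. Eno2, Pfkfb3 and Slc2a1 were the members that passed that unadjusted level without plumbagin 2, where plumbagin 1 is alone, is assumed to vary like the controls and stands apart in its hybridization controls, so the p rests on the spread of the 2 controls. The members' median difference stayed between -0.04 and 0.00 with any array left out. For scale, the SD of the members' medians in number 1 and number 2 was 0.06, which rests on those 2 values only. With either filter, which removes Pdk4, 0 members lay above the controls and 4 below. Among the 8637 genes above background 489 lay above and 1580 below. With arrays centred on their medians 0 members lay above and 6 below, where the median over all genes was -0.03. Quantile normalization again gave 3 above and 4 below, cyclic loess 1 and 3, and averaging of probe sets 1 and 3. Shares over all genes were not computed for centring, quantile normalization, cyclic loess or averaging. With an array left out, 6 to 9 members lay above (23.6% to 33.2% of all genes). In those fits 8 to 13 lay below (28.2% to 39.9% of all genes). With the replicate block 0 genes were called, 434 had a limma unadjusted p under 0.05 and Pfkfb3 was the 1 member among them. The block leaves the differences unchanged, so the members' median stayed at -0.02 by design. No label says what samples of the same number share, and their deviations from the group means correlated at 0.536 over all 17097 genes and at 0.618 over the 8637 above background.

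Eno2, Hk2, Pdhb, Pdk4, Pfkfb3, Slc16a1 and Slc2a1 kept their sign in every setting that tested them (the filters removed Pdk4). The filters, both eBayes variants and the replicate block leave each difference unchanged by design, so no sign could turn there. Of 258 values of members under other settings, those included, 19 turned sign, and of 120 with an array left out 37 did. All 19 came from averaging probe sets, centring, quantile normalization again and cyclic loess. The cause of these turns was not tested. With all probe sets of a gene averaged the turned values were Hk1 -0.083, Pfkl 0.099, Pfkp 0.016, Pfkfb2 0.075 and Pdha1 -0.051. With centred arrays the turned values were Hk1 -0.014, Eno3 -0.0080, Ldha -0.017 and Pdp1 -0.0088. With quantile normalization again the turned values were Pfkp 0.013, Tpi1 0.0043, Pkm 0.0040 and Pdp1 -0.013. With cyclic loess the turned values were Pfkl 0.0059, Pfkp 0.030, Tpi1 0.0085, Pkm 0.023, Dlat 0.00100 and Pdp1 -0.0038. With single arrays left out, values ran for Slc2a3 from -0.32 to 0.098, Hk1 from -0.17 to 0.18, Pfkl from -0.22 to 0.11, Pfkp from -0.048 to 0.0080, Pfkm from -0.19 to 0.043, Pfkfb2 from -0.11 to 0.069, Pfkfb4 from -0.023 to 0.023 and Aldoa from -0.14 to 0.0097. They ran for Aldoc from -0.39 to 0.21, Tpi1 from -0.046 to 0.035, Gapdh from -0.056 to 0.0049, Pgk1 from -0.092 to 0.053, Eno3 from -0.10 to 0.13, Pkm from -0.089 to 0.076, Ldha from -0.0044 to 0.0076 and Ldhb from -0.32 to 0.12. For the rest they ran for Slc16a3 from -0.0091 to 0.099, Pdk1 from -0.033 to 0.42, Pdk2 from -0.070 to 0.0055, Pdk3 from -0.35 to 0.0022, Pdha1 from -0.0095 to 0.16, Dlat from -0.22 to 0.097 and Pdp1 from -0.13 to 0.15. The 6 other pathway genes kept their sign: Pck2 ran from -0.40 to -0.23, Pklr from 0.095 to 0.26, Adpgk from -0.14 to -0.066, Slc2a4 from -0.27 to -0.035, Gckr from 0.049 to 0.20 and Pgm2 from -0.32 to -0.010. With all probe sets of a gene averaged, Pklr was 0.041 and Adpgk -0.053, and Adpgk was -0.050 with quantile normalization again and -0.039 with cyclic loess. Weak signals near background limit what can be read for the 6 dim members.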
